A study of Mus musculus with 4 samples.

Results

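The cell-cycle genes described here are a fixed list of 38 genes of DNA synthesis and division, followed by library through the cells of B16F10 tumours, which grow from a mouse melanoma line. All 38 were found by symbol among the 31053 genes of the deposited count matrices. Of them 16 are read in S phase (Pcna, Mcm2 to Mcm7, Tyms, Tk1, Rrm1, Rrm2, Pclaf, Rad51ap1, Ccne1, Ccne2 and Cdc6) and 21 in G2 and mitosis (Mki67, Ccnb1, Ccnb2, Ccna2, Cdk1, Birc5, Ube2c, Cdc20, Cenpf, Cenpe, Cenpa, Tpx2, Aurka, Aurkb, Plk1, Bub1, Bub1b, Kif11, Nusap1, Pbk and Spc25). Fbxo5, which acts between the phases, was counted in neither set. The list was given by name and not chosen by a threshold on measured values, but earlier results of these data were known when it was chosen. Whole tumours were dissociated, with no sort described, and read with 5' droplet chemistry as 1 library for each of 4 groups. The aPD-1 group received an antibody to the receptor PD-1. In D+F, mice were given the anthracycline doxorubicin together with fasudil, which inhibits the kinase ROCK. The D+F+P group combined both drugs with the antibody, and the last group was the control. All groups carry tumours of the same line. Doses, times, control vehicle, mouse strain, age and the number of mice in a library are not given in the sources used here. Since each group is a single library, no test could be made, each difference is between libraries, and every interval below is a 95% interval that covers counting error only.

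A dividing cell copies its DNA in S phase and parts the copies in mitosis, with a gap, G2, between them. S genes are switched on by E2F transcription factors once cyclin-dependent kinases inactivate the retinoblastoma protein, and most genes of G2 and mitosis are switched on later by the MuvB complex with B-Myb and FoxM1. Transcripts of both sets are low in resting cells, so their summed level in a single cell is commonly used to find cells in cycle. In tumours such signal comes from the cancer cells and from activated lymphocytes that expand there.

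The aPD-1, D+F, D+F+P and control libraries held 27216211, 31937128, 22691663 and 34444856 UMIs (unique molecular identifiers, each a counted transcript) over 2525, 2809, 2739 and 2529 barcodes. After filtering, 9415 cells remained. The D+F+P library stood apart, with a median of 1866 UMIs per cell against 9563.5 in aPD-1, 12882 in D+F and 16143 in control. It also held 1045 of the 1441 lymphocyte barcodes that were left unnamed, in clusters with medians of 643 to 2152 UMIs. Of 10533 barcode sequences, 69 occurred in 2 or more libraries. Cells were named from marker genes after clustering without cell-cycle genes, and "-like" marks a name given by transcripts. All 8 melanoma markers were detected in each melanoma-like cluster, and pigment genes made up 10351, 10246, 10978 and 10850 CPM of the class in aPD-1, D+F, D+F+P and control. Doublets could not be removed reliably. For each cell, 1000 UMIs were drawn at random, and a cell was called cycling where at least 3 of them fell on the 38 genes. Cells under 1000 UMIs were left out of these shares. The balance of the phases is the log2 ratio of summed S UMIs to summed G2/M UMIs over all UMIs of a class, and the level of a gene is its UMIs per 1000000 UMIs of its class (CPM).

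Melanoma-like cells cycled less often in every treated library than in control. The cycling share was 27.5% (24.9 to 30.3; 298 of 1084 cells) in aPD-1, 31.3% (29.1 to 33.6; 530 of 1693) in D+F and 27.4% (23.6 to 31.4; 144 of 526) in D+F+P, against 45.5% (43.2 to 47.7; 862 of 1896) in control. No treated interval reached the control interval. On the log2 scale the share ratio to control was -0.73 (-0.88 to -0.57) for aPD-1, -0.54 (-0.66 to -0.41) for D+F and -0.73 (-0.94 to -0.52) for D+F+P. These 3 ratios share the control library. Between treated libraries the shares were closer, with a log2 ratio of -0.19 (-0.42 to 0.03) for D+F+P over D+F and of -0.01 (-0.25 to 0.24) for D+F+P over aPD-1. Without thinning, cells with at least 0.3% of their UMIs on the 38 genes were called, and cells under 1000 UMIs were kept. The shares were then 26.0%, 28.0%, 24.9% and 43.5% in aPD-1, D+F, D+F+P and control. The call is a range rather than a state: 64, 131, 43 and 176 of the cycling cells in these libraries had exactly 3 member UMIs, and 107, 159, 51 and 205 further cells had 2. The low-cycling classes give a low end for this call but not a floor, since they held member transcripts too. Monocyte/macrophage-like cells had 233, 367, 273 and 1142 CPM over the G2/M members in aPD-1, D+F, D+F+P and control, the last on 82 UMIs. Of all plasmacytoid dendritic-like cells, 2.0% (0.051 to 10.6; 1 of 50) were called cycling, and of monocyte/macrophage-like cells 8.13% (4.40 to 13.5; 13 of 160), at medians of 3043 and 4148 UMIs per cell against 18160 in melanoma-like cells.

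**Figure D1:**
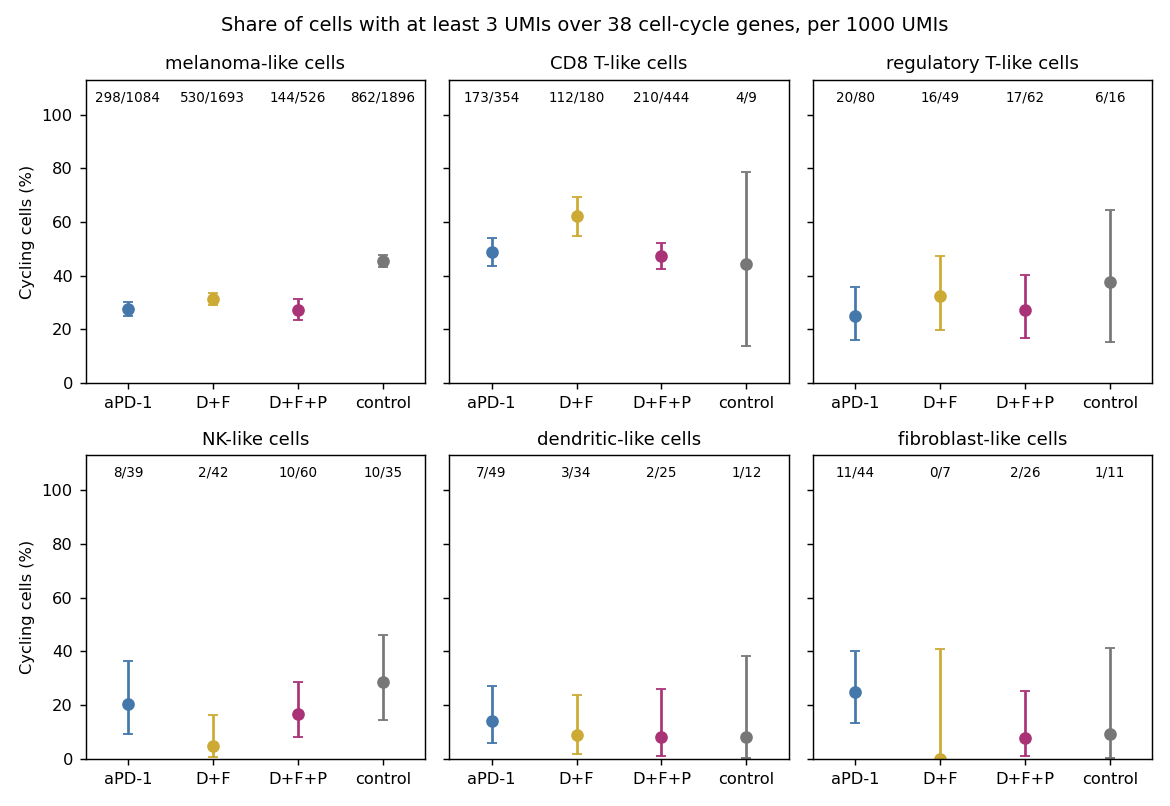
Share of cycling cells (points, in %) with the exact binomial 95% interval (bars) in 6 cell classes, by library, with the cycling cells over all cells at 1000 UMIs written above each point. In melanoma-like cells control (45.5%) lies above all treated libraries, while in CD8 T-like cells the highest share among treated libraries is that of D+F (62.2%).

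The class was made of 7 clusters whose weights differed between libraries, so the share was also read within each cluster. Cluster 3, led by interferon-induced genes (Gbp2, Igtp, Ifit3) and by the antigen presentation genes Cd74 and H2-Aa, held 36.4%, 28.4% and 51.5% of melanoma-like cells in aPD-1, in D+F and in D+F+P, against 10.6% in control. Its cycling share was 25.0% (20.8 to 29.6), 24.7% (20.9 to 28.8) and 21.2% (16.5 to 26.6) in these libraries, against 32.3% (25.9 to 39.3) in control. Within this cluster the intervals of aPD-1 and D+F overlapped that of control, and so did that of D+F+P. Cluster 0, led by Rrm2, Cdk1 and Tk1 although these were left out of the clustering, held 10.2%, 16.4% and 12.1% of cells in aPD-1, in D+F and in D+F+P, against 28.9% in control. Its cycling share was 67.3%, 59.4% and 58.1%, against 68.2% in control. Cluster 7, led by the hypoxia-induced genes Ero1l, Car9, Ndrg1 and Bnip3, had the lowest shares, at 8.71%, 10.8% and 9.62%, against 16.2% in control. The share was below that of control in 7 of 7 clusters in aPD-1, in 7 of 7 in D+F and in 6 of 7 in D+F+P, where cluster 4 was the exception at 42.1% (26.3 to 59.2; 16 of 38 cells) against 37.8% (32.3 to 43.5) in control. Within clusters, each treated interval overlapped that of control except for D+F+P in cluster 1. There the share was 20% (10.0 to 33.7; 10 of 50 cells) against 45.2% (37.5 to 53.1) in control. How far the weights of the clusters set the difference in the whole class was not tested.

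All 38 genes had lower levels in melanoma-like cells of each treated library than in control. At least 1.5-fold lower were 30 of 38 in aPD-1, 18 of 38 in D+F and 30 of 38 in D+F+P, against 6.07%, 5.11% and 10.7% of all genes with at least 20 UMIs in the pair of libraries, and no member was 1.5-fold higher (6.71%, 7.45% and 9.82% of all genes were). The median log2 ratio to control over the members was -0.72 in aPD-1, -0.57 in D+F and -0.87 in D+F+P, beside -0.05, -0.06 and -0.09 over all genes. The summed level of the 38 genes was 2049, 2308 and 1910 CPM in aPD-1, in D+F and in D+F+P, against 3390 CPM in control. In bulk sums like these, fewer cycling cells and fewer transcripts per cycling cell cannot be told apart.

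Among the S genes, 11 of 16 were at least 1.5-fold lower in aPD-1, 8 in D+F and 11 in D+F+P, with median log2 ratios of -0.64, -0.57 and -0.70. Pclaf, which encodes a factor bound to PCNA at replication forks, had 129, 133 and 133 CPM in aPD-1, in D+F and in D+F+P, against 200 CPM in control. Rrm2, the small subunit of ribonucleotide reductase, had 112, 123 and 91.0 CPM, against 207 CPM in control, and its log2 ratio for D+F+P was -1.18 (-1.27 to -1.10). Tk1, the thymidine kinase of the salvage route, had 117, 110 and 81.2 CPM, against 184 CPM in control. Both enzymes thus lay lowest in D+F+P, while Pclaf was level across the treated libraries. Tyms, the thymidylate synthase, had 73.6, 94.8 and 81.8 CPM in aPD-1, in D+F and in D+F+P, against 125 CPM in control. Mcm2, a subunit of the replicative helicase, had 80.0, 86.5 and 72.5 CPM, against 115 CPM in control. Of the helicase subunits Mcm5 was among the least different in aPD-1, with 29.7 CPM against 39.2 CPM in control and a log2 ratio of -0.40 (-0.54 to -0.26). Pcna, the sliding clamp of the polymerases, differed little as well. Its level was 63.1, 59.8 and 66.3 CPM in aPD-1, in D+F and in D+F+P, against 83.8 CPM in control, with log2 ratios of -0.41 (-0.51 to -0.31), -0.49 (-0.58 to -0.40) and -0.34 (-0.45 to -0.23).

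The genes that open S phase differed among themselves. Ccne1, a cyclin E that activates CDK2, had 31.5, 36.3 and 32.7 CPM in aPD-1, in D+F and in D+F+P, against 42.9 CPM in control, with log2 ratios of -0.44, -0.24 and -0.39. Ccne2, the other cyclin E, was scarce at 5.44, 5.11 and 4.28 CPM, against 8.398 CPM in control, and its ratios were -0.63 (-0.96 to -0.31), -0.72 (-1.02 to -0.42) and -0.97 (-1.39 to -0.57). Cdc6, which loads the helicase onto replication origins, had 5.63, 5.95 and 3.33 CPM in aPD-1, in D+F and in D+F+P, against 11.4 CPM in control. That was the largest difference among the S genes in each of the 3 comparisons, at -1.01 (-1.32 to -0.71), -0.93 (-1.20 to -0.67) and -1.77 (-2.23 to -1.34). It rested on 117, 169 and 49 UMIs, against 372 in control.

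Among the G2/M genes, 18 of 21 were at least 1.5-fold lower in aPD-1, 9 in D+F and 18 in D+F+P, with median log2 ratios of -0.78, -0.57 and -0.94. Cdk1, the kinase that drives entry into mitosis, had 81.4, 94.6 and 70.4 CPM in aPD-1, in D+F and in D+F+P, against 181 CPM in control. It had the lowest ratio of the set in each comparison, at -1.16 (-1.24 to -1.08), -0.94 (-1.005 to -0.87) and -1.37 (-1.46 to -1.27). Its cyclins were less different. Ccnb1 had 36.2, 40.7 and 34.4 CPM in aPD-1, in D+F and in D+F+P, against 65.4 CPM in control, and Ccnb2 had 77.1, 91.0 and 81.6 CPM, against 119 CPM in control. Mki67, the Ki-67 protein that coats mitotic chromosomes, had 70.6, 78.5 and 55.2 CPM, against 116 CPM in control.

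The most abundant member in melanoma-like cells was Birc5 (survivin, a subunit of the chromosomal passenger complex), with 183, 211 and 175 CPM in aPD-1, in D+F and in D+F+P, against 296 CPM in control. Ube2c, a ubiquitin-conjugating enzyme of the anaphase-promoting complex, had 148, 182 and 156 CPM, against 287 CPM in control. In both genes D+F lay nearest to control. Bub1, a kinase of the spindle checkpoint, had 14.3, 21.1 and 14.0 CPM, against 23.7 CPM in control, so that D+F lay near control with a log2 ratio of -0.17 (-0.33 to -0.01) while aPD-1 had -0.73 (-0.92 to -0.53) and D+F+P -0.76 (-0.99 to -0.54). Cenpa, the histone H3 variant that marks centromeres, was the member nearest to control in all 3 comparisons. It had 102, 117 and 114 CPM in aPD-1, in D+F and in D+F+P, against 126 CPM in control, with ratios of -0.31 (-0.39 to -0.23), -0.10 (-0.17 to -0.04) and -0.15 (-0.23 to -0.07).

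Fbxo5, which encodes the inhibitor EMI1 that keeps the anaphase-promoting complex off during S and G2, had the lowest ratio of all 38 genes in each comparison with control. Its level was 11.7 CPM (243 UMIs) in aPD-1, 9.02 CPM (256 UMIs) in D+F and 5.64 CPM (83 UMIs) in D+F+P, against 26.9 CPM (880 UMIs) in control. The log2 ratios were -1.20 (-1.41 to -0.99), -1.57 (-1.78 to -1.37) and -2.25 (-2.60 to -1.93). D+F+P also lay below aPD-1 by more than the counting error, at -1.05, and below D+F at -0.68.

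**Figure D2:**
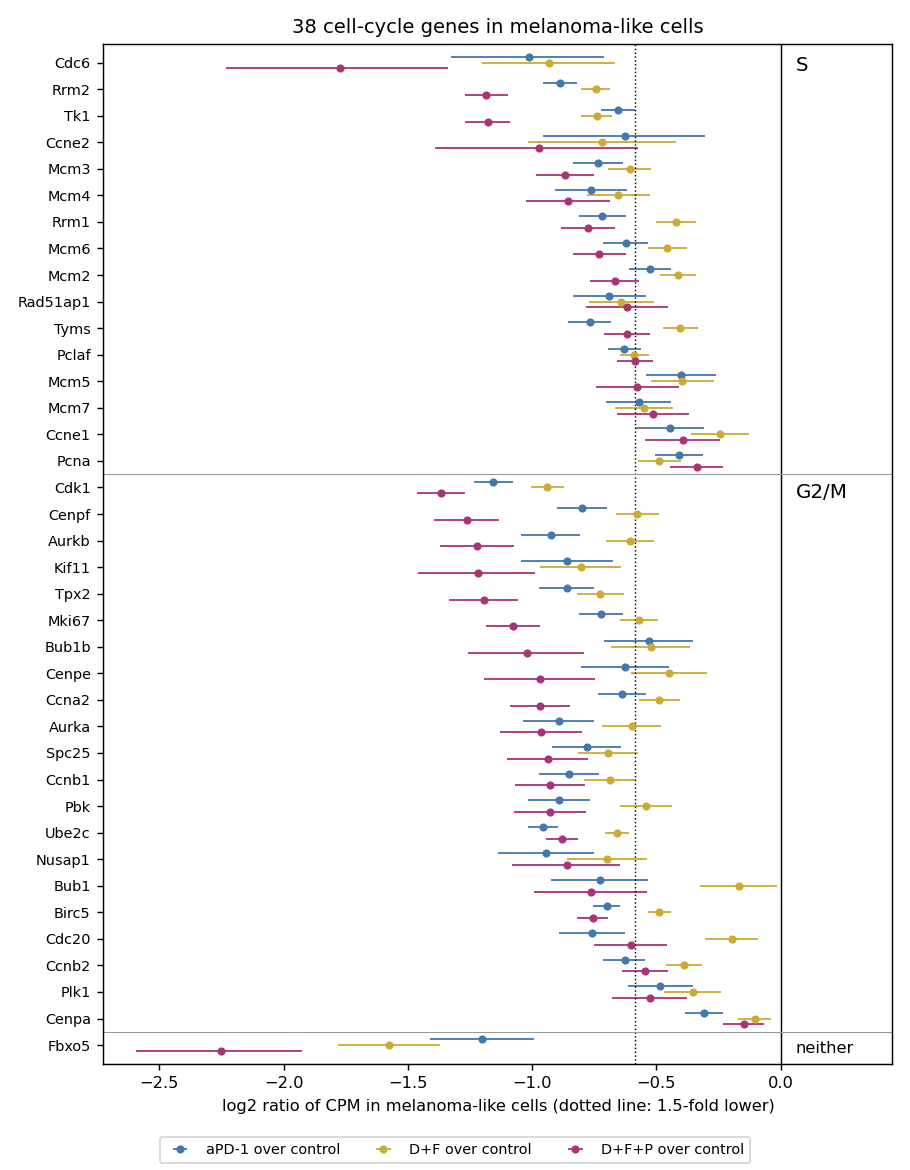
Log2 ratio of the CPM of each of the 38 genes in melanoma-like cells of aPD-1, of D+F and of D+F+P over control (points, with 95% counting intervals as bars), for the S set, the G2/M set and Fbxo5 in neither set, each ordered by D+F+P. Every point lies below 0, Fbxo5, Cdc6 and Cdk1 farthest, and Cenpa nearest to 0.

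Between treated libraries, 5 of 38 members were at least 1.5-fold lower in D+F+P than in D+F (4.87% of all genes) and none higher (5.23%), with a median log2 ratio of -0.27 beside -0.03 over all genes. Cdc6 had the lowest ratio at -0.84 and Pcna the highest at 0.15. In D+F+P over aPD-1, 2 of 38 were lower (Fbxo5 and Cdc6 at -0.76, against 4.31% of all genes) and none higher (5.42%), with a median of -0.10 beside -0.03. Bub1b, a checkpoint kinase, had the lowest ratio of the G2/M genes in this pair, at -0.49, and Cenpa the highest at 0.16.

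Each melanoma-like cell was called from the 1000 drawn UMIs, and its genes were read in the UMIs that were left, which took no part in the call. The call itself rests on the level of the members, so it does not separate the number of cycling cells from the level within them, and the values below describe cells sorted by that level. A cycling cell leaned to S where its drawn S UMIs outnumbered its G2/M UMIs, and to G2/M in the opposite case. Within cycling cells, at least 1.5-fold lower than in control were 3 of 38 in aPD-1 (5.55% of all genes), 2 of 38 in D+F (4.92%) and 10 of 38 in D+F+P (12.3%), and none was higher (5.38%, 5.29% and 8.27% of all genes). The median log2 ratio was -0.23, -0.18 and -0.37, beside -0.04, -0.06 and -0.11 over all genes. Cells not called cycling also held less in the treated libraries, with 13, 14 and 15 of 38 members at least 1.5-fold lower (5.95%, 5.82% and 9.77% of all genes), none higher (5.35%, 5.82% and 8.18%) and medians of -0.52, -0.51 and -0.48. Among cycling cells of D+F+P, 2 of 38 were lower than in D+F (6.33%) and 3 of 38 lower than in aPD-1 (7.04%), and none was higher in either pair (5.63% and 4.82%).

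Fbxo5 and Cdc6 had the lowest ratios of the 38 genes in the cycling cells of D+F and D+F+P, and Cdk1 in those of aPD-1. Fbxo5 was read in S-leaning cells at 42.1 CPM in aPD-1, 25.1 CPM in D+F and 15.3 CPM in D+F+P, against 65.5 CPM in control. In G2/M-leaning cells it had 24.1, 20.6 and 12.9 CPM, against 38.5 CPM in control, and in cells not called cycling 3.13, 1.39 and 2.38 CPM, against 6.54 CPM. Over all cycling cells its log2 ratio to control was -0.65 in aPD-1, -1.06 in D+F and -1.81 in D+F+P. Cdc6 had 20.4, 21.5 and 7.94 CPM in S-leaning cells of aPD-1, of D+F and of D+F+P, against 36.1 CPM in control. Its ratios over all cycling cells were -0.67, -0.71 and -1.61. In D+F+P the S-leaning values rested on 25 UMIs of Fbxo5 and 13 of Cdc6 in 60 cells.

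Cdk1 was also lower in these cells, with 203, 257 and 199 CPM in G2/M-leaning cells of aPD-1, of D+F and of D+F+P, against 368 CPM in control. Mki67 was lowest there in D+F+P, at 217, 243 and 170 CPM, against 256 CPM in control. Cenpa took the opposite direction. In G2/M-leaning cells it had 319, 354 and 382 CPM in aPD-1, in D+F and in D+F+P, against 301 CPM in control, and in S-leaning cells 91.2, 77.8 and 121 CPM, against 60.5 CPM. Its log2 ratio over all cycling cells, 0.12, 0.23 and 0.40, was the highest of the 38 genes in each comparison. Pcna in S-leaning cells was 163, 133 and 148 CPM, against 163 CPM in control.

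**Figure D3:**
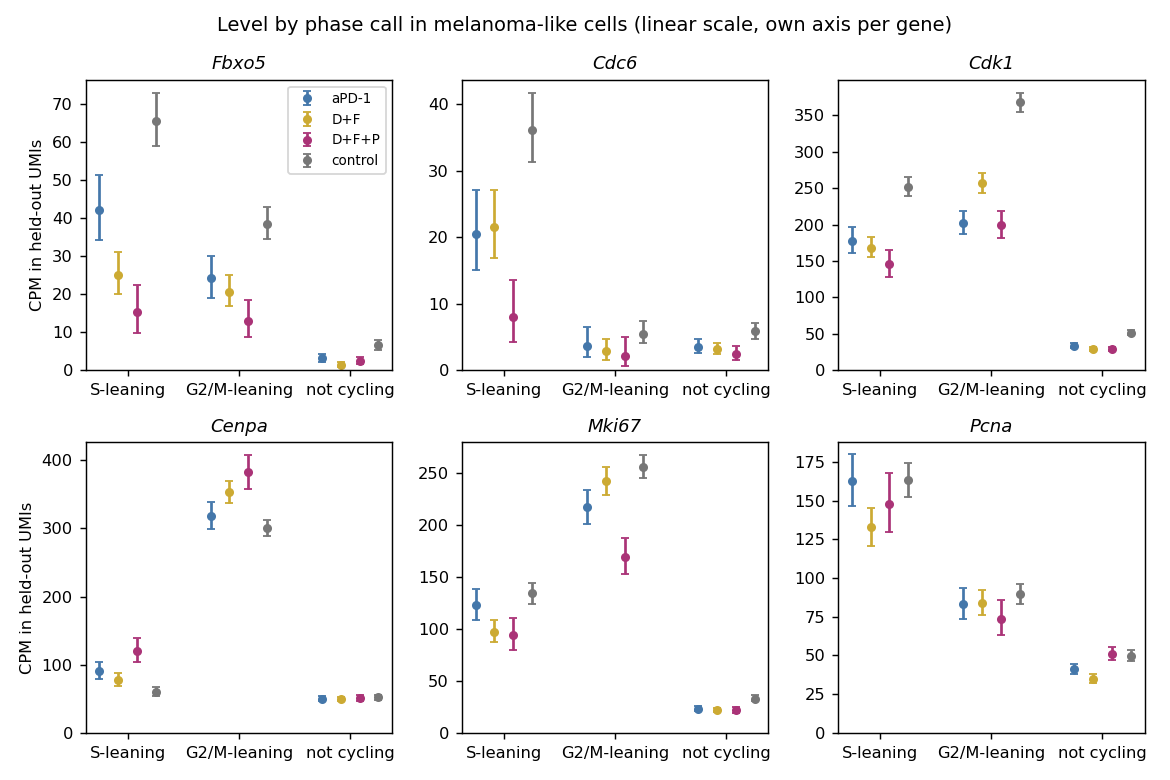
CPM of Fbxo5, Cdc6, Cdk1, Cenpa, Mki67 and Pcna in S-leaning, G2/M-leaning and non-cycling melanoma-like cells by library, read in UMIs that took no part in the phase call (points, with 95% counting intervals as bars). Fbxo5 in S-leaning cells lies between 15.3 and 42.1 CPM in treated libraries and at 65.5 CPM in control, while Cenpa in G2/M-leaning cells is higher in every treated library than in control.

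The balance of the phases in melanoma-like cells differed little beside the level. The log2 ratio of S to G2/M UMIs was -0.30 (-0.32 to -0.27) in aPD-1, -0.42 (-0.44 to -0.40) in D+F and -0.31 (-0.35 to -0.28) in D+F+P, against -0.41 (-0.43 to -0.39) in control. The difference from control was 0.11 (0.08 to 0.14) in aPD-1, -0.01 (-0.04 to 0.01) in D+F and 0.09 (0.06 to 0.13) in D+F+P. As a count of cells, 36.9% (31.4 to 42.7), 34.9% (30.8 to 39.1) and 41.7% (33.5 to 50.2) of cycling cells leaned to S in aPD-1, in D+F and in D+F+P, against 35.7% (32.5 to 39.0) in control, and these intervals overlapped.

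**Figure D4:**
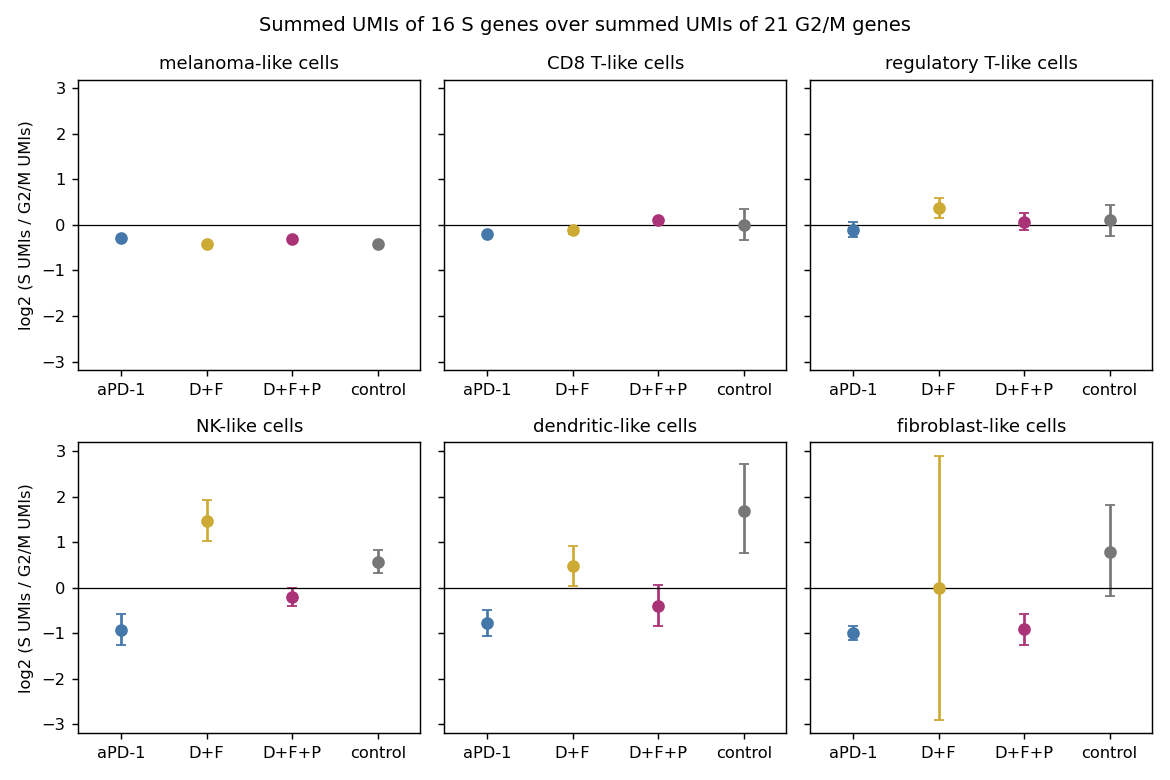
Log2 ratio of summed UMIs of the 16 S genes to those of the 21 G2/M genes in 6 cell classes, by library (points, with 95% counting intervals as bars; 0 marks equal sums). In melanoma-like cells all libraries lie between -0.42 and -0.30, and in NK-like cells they range from -0.92 in aPD-1 to 1.47 in D+F.

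Wider cell-cycle lists showed the same direction in melanoma-like cells. Of 36 further replication genes, 12, 11 and 19 were at least 1.5-fold lower than in control in aPD-1, in D+F and in D+F+P, and of 46 further mitosis genes 23, 14 and 31, with none higher. The shares of all genes that were lower were 6.07%, 5.11% and 10.7%. Top2a, the topoisomerase that untangles replicated DNA and a target of doxorubicin, had 88.7, 88.3 and 74.4 CPM in aPD-1, in D+F and in D+F+P, against 159 CPM in control. At the ends of the replication list stood Pole2 (-0.96 in aPD-1), Cdc45 (-0.83 in D+F) and Gins3 (-1.05 in D+F+P) on the low side, all parts of the replication machinery, with Rfc1 (-0.08 in aPD-1, -0.09 in D+F) and Rpa3 (-0.04 in D+F+P) nearest to control. In the mitosis list the low ends were Kif18b (-1.02 in aPD-1), Top2a (-0.85 in D+F) and Ccnf (-1.24 in D+F+P), and the ends nearest to control were Ncapd2 (-0.14 and -0.17 in aPD-1 and D+F) and Mybl2 (-0.19 in D+F+P).

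The regulators of G1 lay nearer to control. Of 20 such genes, 3, 1 and 4 were at least 1.5-fold lower than in control in aPD-1, in D+F and in D+F+P (6.07%, 5.11% and 10.7% of all genes). None was that much higher (6.71%, 7.45% and 9.82%), and the medians were -0.09, -0.15 and -0.11. The low end was held by E2f7 in aPD-1, at -0.98, and by E2f8 in D+F and D+F+P, at -1.16 and -1.76, both E2F family members that repress transcription. Ccnd1, the cyclin D1 gene, had 147, 161 and 127 CPM in aPD-1, in D+F and in D+F+P, against 157 CPM in control. Ccnd2 had 360, 374 and 307 CPM, against 308 CPM in control, and Ccnd3 had 137, 154 and 162 CPM, against 130 CPM. The partner kinases were also near control: Cdk4 had 280, 322 and 304 CPM, against 358 CPM, and Cdk6 17.7, 16.7 and 15.2 CPM, against 19.8 CPM. E2f1 had 18.9, 19.0 and 21.9 CPM, against 20.5 CPM in control.

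Of 12 CDK inhibitor and quiescence genes, 9 had enough UMIs in melanoma-like cells. At least 1.5-fold higher than in control were none in aPD-1, 1 in D+F and 3 in D+F+P (6.71%, 7.45% and 9.82% of all genes), and lower were none, 1 and 2 (6.07%, 5.11% and 10.7%). Cdkn1a, the p21 gene and a target of p53, had 194, 260 and 159 CPM in aPD-1, in D+F and in D+F+P, against 247 CPM in control, so that it was higher only in D+F, by 0.08 on the log2 scale (0.03 to 0.12). Cdkn1b, the p27 gene, had 44.9, 42.7 and 37.8 CPM, against 39.7 CPM in control. Klf2, a quiescence factor of lymphocytes and endothelium, had 16.3, 8.70 and 28.6 CPM, against 13.1 CPM in control, and Btg2, an antiproliferative p53 target, had 5.20, 9.55 and 7.20 CPM, against 4.55 CPM.

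Since the members were lower together, the letters of their promoters were compared with those of all genes. RefSeq promoters (250 bases before to 50 after the start, GRCm38.p6) were matched for 32 of the 38 genes by symbol. Letters were searched on both strands: CCAAT for the CCAAT box, TTTGAA for the cell-cycle homology region (CHR) bound by MuvB, and TTTCCCGC, TTTGGCGC, TTTCGCGC or TTTGCCGC as E2F-like sites. CCAAT was found in 15 of 17 G2/M promoters (88.2%), in 10 of 14 S promoters (71.4%) and in 37.9% of 27025 promoters of all genes. The CHR letters were found in 12 of 17 G2/M promoters (70.6%), in 1 of 14 S promoters (7.14%) and in 18.1% of all. E2F-like letters were found in 1 of 17 G2/M promoters (5.88%), in 6 of 14 S promoters (42.9%) and in 2.32% of all. A match describes these letters and is not a measured binding site.

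The promoters of the 3 members farthest below control (Fbxo5, Cdc6, Cdk1), of the G2/M gene nearest to it (Cenpa), of an abundant G2/M gene (Ube2c) and of Pcna are printed from 5' to 3' along the gene, with matched letters in capitals. On GRCm38.p6 they lie at chr10:5805416-5805715 (minus strand), chr11:98907901-98908200 (plus), chr10:69352863-69353162 (minus), chr5:30666636-30666935 (plus), chr2:164769679-164769978 (plus) and chr2:132253131-132253430 (minus). In these windows Fbxo5, Cenpa and Ube2c hold CCAAT and CHR letters (Ube2c 6 CCAAT matches, of which 2 overlap). Cdk1 holds all 3 kinds, Cdc6 only an E2F-like match and Pcna only a CCAAT match. The Cdc6 window follows a RefSeq start, while another annotation on GRCm38 begins the gene at chr11:98907801, ahead of the whole window. Letters around that earlier start were not searched.
Fbxo5: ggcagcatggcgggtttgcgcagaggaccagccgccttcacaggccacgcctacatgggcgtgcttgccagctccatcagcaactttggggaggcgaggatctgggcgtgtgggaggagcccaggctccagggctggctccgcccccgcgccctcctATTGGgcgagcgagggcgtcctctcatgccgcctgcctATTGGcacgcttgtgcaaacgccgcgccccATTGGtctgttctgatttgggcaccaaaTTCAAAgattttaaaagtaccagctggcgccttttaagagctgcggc
Cdc6: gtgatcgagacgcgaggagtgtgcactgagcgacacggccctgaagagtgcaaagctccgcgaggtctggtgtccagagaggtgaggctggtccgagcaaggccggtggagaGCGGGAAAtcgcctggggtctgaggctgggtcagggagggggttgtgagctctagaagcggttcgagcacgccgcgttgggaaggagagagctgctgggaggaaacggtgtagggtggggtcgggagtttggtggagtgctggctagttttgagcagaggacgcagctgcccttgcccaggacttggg
Cdk1: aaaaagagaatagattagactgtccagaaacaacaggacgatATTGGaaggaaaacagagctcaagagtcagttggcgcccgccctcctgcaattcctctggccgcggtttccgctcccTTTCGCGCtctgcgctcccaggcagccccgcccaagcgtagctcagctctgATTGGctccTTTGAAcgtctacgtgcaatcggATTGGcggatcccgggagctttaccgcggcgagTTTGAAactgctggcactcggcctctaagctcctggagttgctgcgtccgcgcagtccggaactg
Cenpa: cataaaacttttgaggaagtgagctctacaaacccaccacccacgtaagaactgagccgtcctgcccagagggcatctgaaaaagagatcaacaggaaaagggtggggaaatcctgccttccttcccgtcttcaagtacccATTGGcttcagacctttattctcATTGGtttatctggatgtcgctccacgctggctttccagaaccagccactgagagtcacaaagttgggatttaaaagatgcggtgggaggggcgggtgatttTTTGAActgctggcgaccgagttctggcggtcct
Ube2c: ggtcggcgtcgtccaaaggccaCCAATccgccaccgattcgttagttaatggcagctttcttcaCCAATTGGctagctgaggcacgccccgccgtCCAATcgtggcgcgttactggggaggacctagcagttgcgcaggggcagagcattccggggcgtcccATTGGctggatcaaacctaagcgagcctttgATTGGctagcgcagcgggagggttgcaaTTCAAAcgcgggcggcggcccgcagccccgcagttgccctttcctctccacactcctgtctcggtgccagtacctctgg
Pcna: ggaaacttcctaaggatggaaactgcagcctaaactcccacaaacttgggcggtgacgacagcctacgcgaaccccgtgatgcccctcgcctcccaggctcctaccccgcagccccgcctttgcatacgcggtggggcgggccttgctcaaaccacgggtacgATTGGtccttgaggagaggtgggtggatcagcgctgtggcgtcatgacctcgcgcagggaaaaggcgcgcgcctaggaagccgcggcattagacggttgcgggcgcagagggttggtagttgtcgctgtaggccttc

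Over all libraries together, 50.6% (47.4 to 53.7; 499 of 987) of CD8 T-like cells cycled, against 35.3% (34.0 to 36.6) of melanoma-like cells, and the share was above that of melanoma-like cells in each treated library. They numbered 395 in aPD-1, 195 in D+F and 535 in D+F+P, but only 12 in control, so control was left out of their comparisons. The cycling share was 48.9% (43.6 to 54.2; 173 of 354 cells) in aPD-1, 62.2% (54.7 to 69.3; 112 of 180) in D+F and 47.3% (42.6 to 52.1; 210 of 444) in D+F+P, and 4 of 9 cells in control, too few to set against the 45.5% of melanoma-like cells there. The log2 ratio of shares was -0.40 (-0.61 to -0.18) for D+F+P over D+F and -0.05 (-0.26 to 0.16) for D+F+P over aPD-1. In the largest sub-cluster, led by Rgs16, Cd8a and Cd8b1 next to receptor genes, 42.5% of cells cycled in D+F+P (36.1 to 49.1), against 54.4% in D+F (45.3 to 63.3) and 47.4% in aPD-1 (40.8 to 54.1). In a sub-cluster rich in granzymes F, E and D the shares were 43.9% (30.7 to 57.6), against 73.5% (55.6 to 87.1) and 41.2% (29.4 to 53.8). A low-ribosomal sub-cluster, of median 1022 UMIs, held 167 of 535 CD8 T-like cells in D+F+P, against 23 of 195 in D+F and 68 of 395 in aPD-1. Melanoma pigment transcripts made up 135 CPM of these cells in D+F+P, against 243 CPM in D+F and 215 CPM in aPD-1. The part of either in these shares was not tested.

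The balance of the phases leaned further to S in CD8 T-like cells of D+F+P. The log2 ratio of S to G2/M UMIs was 0.10 (0.06 to 0.15) in D+F+P, against -0.11 (-0.19 to -0.03) in D+F and -0.20 (-0.26 to -0.15) in aPD-1. The differences were 0.21 (0.13 to 0.30) for D+F+P over D+F and 0.31 (0.23 to 0.38) for D+F+P over aPD-1. The summed S level was 1949 CPM in D+F+P, against 2015 CPM in D+F and 1802 CPM in aPD-1, and the summed G2/M level was 1815 CPM, against 2175 CPM and 2074 CPM. Of the cycling cells, 50% (43.0 to 57.0) leaned to S in D+F+P, against 47.3% (37.8 to 57.0) in D+F and 43.4% (35.9 to 51.1) in aPD-1, so the shift was not detectable in the counts of cells. A sub-cluster led by Gzmk, in which 71.7% of cells cycled over all libraries (71 of 99), held 68 of 535 CD8 T-like cells in D+F+P, against 9 of 195 in D+F and 23 of 395 in aPD-1. Without it the balance differences were 0.16 (0.07 to 0.26) over D+F and 0.22 (0.14 to 0.30) over aPD-1, an alternative chosen after seeing the data.

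Few single members of the list differed by 1.5-fold in CD8 T-like cells. None of 38 was that much lower (6.73% of all genes) or higher (15.6%) in D+F+P than in D+F, and in D+F+P over aPD-1 1 was lower (5.51%) and 2 were higher (11.3%). These were Cenpe, a kinetochore motor, at -0.77 (-1.13 to -0.41), and Ccne1 at 0.73 (0.29 to 1.20) and Aurka, a spindle kinase, at 0.61. Without the Gzmk-led sub-cluster, 7 of 38 were lower in D+F+P than in D+F and 1 lower than in aPD-1, with none higher in either pair. The share of all genes without this sub-cluster is not given here, so these counts are only a description. Cenpe had 29.8 CPM in D+F+P, against 36.8 CPM in D+F and 50.8 CPM in aPD-1, and Ccne1 36.4 CPM, against 32.2 CPM and 21.9 CPM. Relative to D+F the ends were Tpx2, a spindle assembly factor, at -0.57, and Ccne2 at 0.32.

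The most abundant members in CD8 T-like cells were Pclaf and Mcm6 of the S set and Cenpa and Ube2c of the G2/M set. Pclaf had 443 CPM in D+F+P, against 423 CPM in D+F and 423 CPM in aPD-1, and Mcm6 had 178 CPM, against 179 CPM and 179 CPM. Cenpa had 340 CPM in D+F+P, against 374 CPM in D+F and 445 CPM in aPD-1, and Ube2c 325 CPM, against 419 CPM and 364 CPM. These S genes were thus level between libraries, and these G2/M genes lowest in D+F+P. Pcna had 179 CPM in D+F+P, against 151 CPM in D+F and 130 CPM in aPD-1, and Mki67 had 137 CPM, against 169 CPM and 166 CPM. Fbxo5, the member farthest from control in melanoma-like cells, had 26.8 CPM in CD8 T-like cells of D+F+P, against 22.2 CPM in D+F and 26.2 CPM in aPD-1. Within cycling CD8 T-like cells, read in UMIs outside the call, none of 38 members was 1.5-fold lower in D+F+P than in D+F (7.74% of all genes) and 1 was higher (Fbxo5 at 0.61, 13.9%). Relative to aPD-1, 2 were lower (7.55%) and 2 higher (11.3%), with Cenpe at -0.96 and Ccne1 at 0.83 as the ends.

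**Figure D5:**
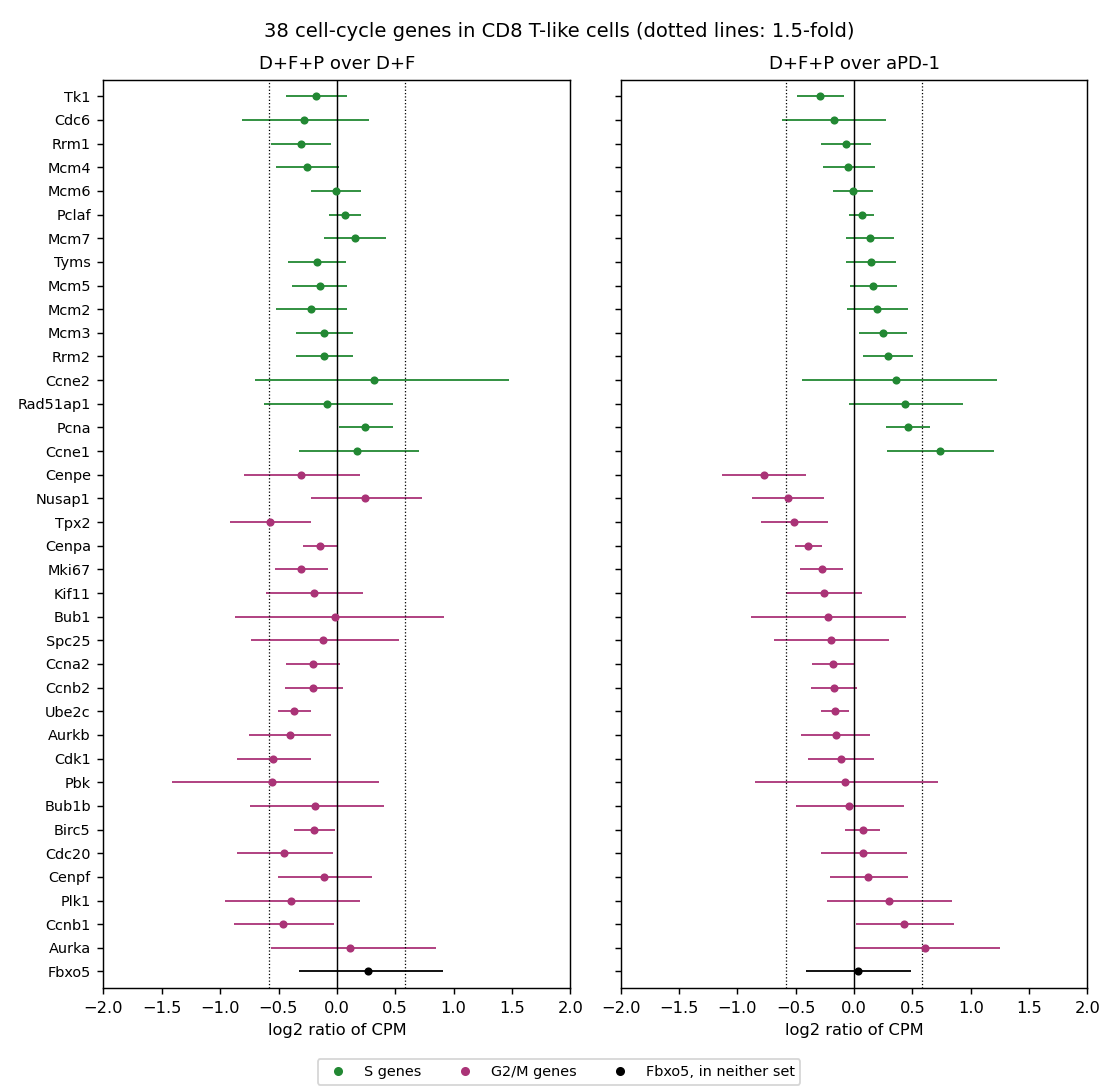
Log2 ratio of the CPM of the 38 genes in CD8 T-like cells of D+F+P over D+F (left) and over aPD-1 (right), with 95% counting intervals as bars. Over aPD-1 the ends are the S gene Ccne1 (0.73) and the G2/M gene Cenpe (-0.77).

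Of 11 inhibitor and quiescence genes with enough UMIs in these cells, 3 were at least 1.5-fold higher in D+F+P than in D+F (15.6% of all genes) and 3 lower (6.73%), and 1 was higher (11.3%) and 1 lower (5.51%) than in aPD-1. Cdkn2a, which encodes p16 and p19ARF, had 46.6 CPM in D+F+P, against 110 CPM in D+F and 60.5 CPM in aPD-1, and Cdkn1a 82.7 CPM, against 140 CPM and 102 CPM. Cdkn1b had 35.0 CPM, against 42.2 CPM and 48.4 CPM. Klf2, which maintains resting T cells, had 27.7 CPM in D+F+P, against 6.90 CPM in D+F and 5.86 CPM in aPD-1, with log2 ratios of 2.01 (1.03 to 3.17) and 2.24 (1.46 to 3.12). E2f1 had 14.8 CPM in D+F+P, against 6.90 CPM in D+F and 8.59 CPM in aPD-1. The cyclin D kinases were close: Cdk4 had 211 CPM, against 250 CPM and 192 CPM, and Cdk6 104 CPM, against 109 CPM and 126 CPM. Top2a had 176 CPM, against 193 CPM and 191 CPM.

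Regulatory T-like cells, led by Foxp3, the factor that defines the lineage, numbered 91 in aPD-1, 53 in D+F, 82 in D+F+P and 19 in control. The cycling share was 25.0% (15.99 to 35.9; 20 of 80 cells), 32.7% (19.9 to 47.5; 16 of 49) and 27.4% (16.9 to 40.2; 17 of 62), against 37.5% (15.2 to 64.6; 6 of 16) in control, and no difference was detectable at this depth. The balance was -0.10 (-0.28 to 0.07) in aPD-1, 0.37 (0.15 to 0.60) in D+F, 0.08 (-0.11 to 0.27) in D+F+P and 0.10 (-0.24 to 0.45) in control. Relative to D+F, D+F+P differed by -0.30 (-0.59 to -0.01). Of 22 members with enough UMIs, 3 were at least 1.5-fold lower in D+F+P than in D+F (13.0% of all genes) and 2 higher (15.2%), from Ube2c at -0.92 to Kif11, a spindle motor, at 0.60. Of 25 members, 8 were lower in D+F+P than in aPD-1 (13.1%) and none higher (11.7%), from Mcm2 at -1.18 to Birc5 at 0.17. Mki67 had 206, 73.2, 109 and 145 CPM in aPD-1, D+F, D+F+P and control, and Pcna 123, 130, 135 and 118 CPM. The most abundant members were Pclaf (225, 313, 246 and 434 CPM), Mcm6 (203, 187, 145 and 250 CPM), Cenpa (270, 159, 239 and 342 CPM) and Ube2c (254, 289, 152 and 381 CPM). The 5 cells richest in the members gave 38.4%, 51.8%, 41.6% and 82.2% of their UMIs in these libraries.

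NK-like cells, led by Tyrobp and Gzma and with 7 of 7 NK markers detected, numbered 45 in aPD-1, 48 in D+F, 78 in D+F+P and 39 in control. The cycling share was 20.5% (9.30 to 36.5; 8 of 39 cells), 4.76% (0.58 to 16.2; 2 of 42) and 16.7% (8.29 to 28.5; 10 of 60), against 28.6% (14.6 to 46.3; 10 of 35) in control. Relative to control the log2 share ratio was -2.58 (-4.68 to -0.49) in D+F, -0.48 (-1.65 to 0.69) in aPD-1 and -0.78 (-1.89 to 0.33) in D+F+P. The share in D+F lay between those of the monocyte/macrophage-like (8.13%) and plasmacytoid dendritic-like cells (2.0%). In D+F 1 NK-like cell held 84 member UMIs, and how much of this share is background was not tested. The balance spanned a wide range, at -0.92 (-1.26 to -0.59) in aPD-1, 1.47 (1.02 to 1.94) in D+F and -0.20 (-0.39 to -0.02) in D+F+P, against 0.57 (0.32 to 0.83) in control. Few cells carried these values: in D+F 1 cell held 39.6% of 212 member UMIs, and the 5 richest cells held 71.6%, 64.2%, 64.8% and 62.6% in aPD-1, D+F, D+F+P and control. Melanoma pigment transcripts made up 449, 755, 217 and 311 CPM of NK-like cells in these libraries. Barcodes with pigment RNA over 10% of the melanoma-like median numbered 14 of 45, 20 of 48, 12 of 78 and 6 of 39. What such RNA adds to the member counts was not tested.

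The single members of NK-like cells rest on the same few cells. The minimum of 20 UMIs applied to both libraries of a pair together, so a gene could pass through the library where it was high. In D+F only Mcm6 (23 UMIs) and Pclaf (20 UMIs) reached 20 UMIs alone. All counts of members in these cells, those against control included, are therefore a description. Of 17 members with enough UMIs, 13 were at least 1.5-fold lower in aPD-1 than in control (19.9% of all genes) and 2 higher (15.1%), with Rrm2 at -2.54 and Cenpa at 0.78 as the ends. In D+F 11 of 15 were lower than in control (20.7%) and none higher (12.5%), from Mki67 at -5.07 (-10.4 to -2.49), on 1 UMI against 35, to Mcm2 at -0.23. In D+F+P 9 of 23 were lower than in control (19.8%) and 3 higher (17.4%), from Mki67 at -2.31 to Nusap1, a spindle protein, at 1.31 (-0.46 to 3.72), on 18 UMIs against 3. D+F+P exceeded D+F by 1.5-fold in 13 of 20 members (19.8%) and was lower in 2 (12%), from Mcm5 at -0.82 to Cdk1 at 3.31 (0.70 to 8.67), on 25 UMIs against 1. In this pair 5 of the 20 members had at most 3 UMIs in D+F and passed the minimum only through D+F+P, so the count is a description. Relative to aPD-1, 11 of 24 were higher in D+F+P (15.7%) and 2 lower (14.2%), from Mki67 at -1.28 to Tyms at 1.37. Pclaf had 108, 138 and 261 CPM in aPD-1, in D+F and in D+F+P, against 437 CPM in control, Pcna 62.5, 125 and 148 CPM, against 172 CPM, Cenpa 261, 96.9 and 242 CPM, against 152 CPM, and Ube2c 210, 41.5 and 283 CPM, against 126 CPM.

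Few dendritic-like cells were called cycling, with 14.3% (5.94 to 27.2; 7 of 49 cells) in aPD-1, 8.82% (1.86 to 23.7; 3 of 34) in D+F, 8.0% (0.98 to 26.0; 2 of 25) in D+F+P and 1 of 12 cells in control. The shares in D+F and D+F+P lie at the level of the monocyte/macrophage-like cells (8.13%). In D+F 1 dendritic-like cell held 73 of 191 member UMIs, and how much of these shares is background was not tested. Of 13 cycling cells over all libraries, 11 were in the sub-cluster of Clec9a and Xcr1, which mark cross-presenting dendritic cells, where they made up 20.8% (10.8 to 34.1) of 53 cells. The sub-cluster of Ccr7 and Fscn1, which mark migratory dendritic cells, had 1 cycling cell of 32 (3.13%), and that of Cd209a had 1 of 35 (2.86%). The balance was -0.77 (-1.05 to -0.48) in aPD-1, 0.47 (0.04 to 0.91) in D+F and -0.40 (-0.85 to 0.05) in D+F+P, and 1 cell held 72.7% of the 55 member UMIs in control. D+F+P over D+F gave 2 of 7 members lower (15.9% of all genes) and 2 higher (16%), from Ube2c at -1.39 to Cenpa at 1.60. D+F+P over aPD-1 gave 4 of 8 lower (15%) and 2 higher (13.0%), from Ube2c at -2.24 to Mcm6 at 0.98. Both ends turned sign with classes taken from marker UMIs, to 0.35 for Ube2c and -0.47 for Mcm6, and so did Ube2c over D+F, to 0.34. Mki67 had 16, 9, 6 and 2 UMIs in aPD-1, D+F, D+F+P and control.

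Fibroblast-like cells, led by the collagens Col1a1 and Col3a1 with Dcn, numbered 45 in aPD-1, 7 in D+F, 26 in D+F+P and 13 in control, and only D+F+P and aPD-1 were compared. The cycling share was 7.69% (0.95 to 25.1; 2 of 26 cells) in D+F+P, against 25.0% (13.2 to 40.3; 11 of 44) in aPD-1, with a log2 ratio of -1.70 (-3.76 to 0.36). D+F had 0 of 7 cells, with an exact interval of up to 41.0%, and control 1 of 11. The limit set here for a count of 0, 3 counts, would be 42.9% in D+F. The summed level of the 38 genes was 761 CPM in D+F+P, against 2102 CPM in aPD-1, and 25 of 28 members with enough UMIs were at least 1.5-fold lower (15.1% of all genes) and none higher (22.6%), with a median log2 ratio of -1.63 beside 0.04. The ends were Aurkb, a kinase of the chromosomal passenger complex, at -4.30 (-9.64 to -1.73), on 1 UMI against 36, and Pcna at 0.00, with 43.8 CPM in D+F+P against 43.9 CPM in aPD-1. Ube2c had 131 CPM in D+F+P, against 259 CPM in aPD-1, Birc5 65.7 CPM, against 193 CPM, Pclaf 38.9 CPM, against 128 CPM, Tyms 17.03 CPM, against 91.8 CPM, and Mki67 24.3 CPM, against 83.8 CPM. In D+F+P 1 cell gave 46.6% of 313 member UMIs. Only Ube2c (54 UMIs), Birc5 (27 UMIs) and Cenpa (21 UMIs) reached the UMI minimum in D+F+P alone. All others of the 28 members passed it with the help of their aPD-1 UMIs, and 5 of them had at most 3 UMIs in D+F+P. The count of 25 of 28 is therefore a description. The median ribosomal share of these cells was 18.3% in D+F+P, against 25.0% in aPD-1, and 9 of 26 cells, against 7 of 45, lay under 12%. The part of this in the result was not tested.

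The inhibitor genes had the opposite direction in fibroblast-like cells. Of 9 with enough UMIs, 6 were at least 1.5-fold higher in D+F+P than in aPD-1 (22.6% of all genes) and none lower (15.1%). Cdkn2b, the p15 gene, had 107 CPM in D+F+P, against 15.97 CPM in aPD-1, with a log2 ratio of 2.75 (1.80 to 3.80), and Cdkn2a 204 CPM, against 35.9 CPM, with 2.51 (1.87 to 3.19). Cdkn1a had 360 CPM, against 189 CPM. Among G1 genes, Ccnd1 had 445 CPM in D+F+P, against 112 CPM in aPD-1, and Cdk6 75.4 CPM, against 14.6 CPM. The S to G2/M balance was the same within counting error, at -0.92 (-1.27 to -0.57) in D+F+P and -0.99 (-1.15 to -0.84) in aPD-1.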

How the data were processed

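Whole-cell count matrices of 4 libraries were deposited by the authors, made with Cell Ranger 3.1.0 on GRCm38 (mm10), per the submitters' processing notes, and hold UMI counts per gene and barcode with no normalization. No columns lacked a sample. Barcodes under 300 genes or 500 UMIs, or with over 20% of UMIs from mitochondrial genes, were dropped. Scrublet marked 46 of 9461 (0.486%), too few to have worked, so doublets remain. Cells were scaled to 10000 UMIs and clustered without cell-cycle genes (scanpy 1.11.5, 2000 variable genes, 30 principal components, 15 neighbours, Leiden resolution 1), then named from markers. The naming score and the minimum of 10 cells for a variable gene were chosen after seeing the data.

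Counts were summed by class and library. A member was counted as differing at 1.5-fold or more, with at least 20 UMIs in the pair and 20 cells in both libraries. In small classes a gene could reach 20 UMIs through the library where it was high, so their counts are a description. Shares carry Clopper-Pearson, levels exact Poisson and CPM ratios exact conditional binomial intervals. Ratios of shares and differences of balance carry normal intervals on the log scale. The steps were tested on simulated data. The members and lists were chosen with earlier results of these data known. In melanoma-like cells the text names the 5 most abundant genes of each set, Fbxo5, Mki67, Pcna, Cdk1, Ccnb1, Cdc6, Ccne1 and Ccne2 and the 2 members at each end of a comparison. In other classes it names Mki67, Pcna, the 2 most abundant genes of each set and the ends. Alternatives changed the cycling threshold, thinning, cell filters, class names, sets, scaling and UMI minimum.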

Additional observations from a re-analysis of the deposited data

Results flagged for a closer look

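The S to G2/M balance differed in opposite directions between cell classes under the same contrast, a difference between classes that was not tested. For D+F+P over D+F the log2 difference of balance was 0.11 in melanoma-like and 0.21 in CD8 T-like cells. It was -0.30 (-0.59 to -0.01) in regulatory T-like, -1.67 in NK-like and -0.87 in dendritic-like cells. For D+F+P over control it was 0.09 in melanoma-like and -0.77 in NK-like cells, where it turned to 0.18, the sign of the melanoma-like value, with classes taken from marker UMIs. For aPD-1 over control it was 0.11 in melanoma-like and -1.49 in NK-like cells. The NK-like and dendritic-like values rest on few cells. In NK-like cells 1 cell held 24.5%, 39.6%, 16.5% and 27.2% of the member UMIs in aPD-1, D+F, D+F+P and control. In dendritic-like cells 1 cell held 38.2% in D+F and 22.7% in D+F+P. The 5 richest regulatory T-like cells held 51.8% in D+F and 41.6% in D+F+P.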

How the results depend on the processing

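Over the alternatives, all 152 values of a share ratio between libraries stayed within the interval, and 111 of 120 differences of balance did. The shares themselves moved more. Without thinning, cells under 1000 UMIs also entered the shares. CD8 T-like cells then had 43.3% (171 of 395), 52.3% (102 of 195) and 40.0% (214 of 535) cycling in aPD-1, in D+F and in D+F+P. The reported shares were 48.9% (173 of 354), 62.2% (112 of 180) and 47.3% (210 of 444). Each unthinned share lay below the reported interval, as did the 28.0% of melanoma-like cells in D+F (31.3% as reported). With classes taken from marker UMIs, the melanoma-like balance over control was 0.030 for D+F and 0.14 for D+F+P, and that of NK-like cells for D+F+P over control turned to 0.18. Members of CD8 T-like cells 1.5-fold lower in D+F+P than in D+F (0 as reported) numbered 1 with cell-cycle genes kept in the clustering, 4 with marker UMIs, 1 with median-of-ratios scaling and 4 after thinning. Over aPD-1 (1 as reported) they numbered 2, 3, 2 and 3 under these, and 2 without barcodes that held RNA of another class. In melanoma-like cells, 3 were lower in D+F+P than in D+F without such barcodes (5 as reported), and 4 lower than in aPD-1 after thinning (2 as reported). Single genes that turned sign did so with marker UMIs, in D+F+P: over D+F, Ube2c in regulatory T-like cells (0.15) and Birc5 (-0.21), Ube2c (0.34) and Pclaf (0.20) in dendritic-like cells. Over aPD-1 they were Ube2c (0.23), Cdc20 (0.24) and Nusap1 (0.037) in regulatory T-like, Rrm2 (-0.32) in NK-like, and Ube2c (0.35) and Mcm6 (-0.47) in dendritic-like cells. Over control they were Cenpa (-0.024) and Pclaf (0.42) in NK-like cells. Tk1 in NK-like cells turned to -0.12 over D+F with cell-cycle genes kept, and Mcm4 in melanoma-like cells to 0.079 over control after thinning. Without the Gzmk-led sub-cluster of CD8 T-like cells, left out after seeing the data, members 1.5-fold lower than in D+F numbered 7, and the balance over aPD-1 was 0.22. The counts of members under alternatives stand here without the share of all genes at the same setting, so they are a description. The cause of the changes was not tested. No paired analysis was possible because the labels carry no replicate numbers. Each group is 1 library, so none could be left out, and doses, mice per library and doublets are not resolved.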
